A study of Sus scrofa with 81 samples.

Results

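HOX genes were followed through pig skeletal muscle development. A HOX gene was any entry of the deposited gene table whose symbol is HOX, a cluster letter from A to D and a number. This gave 36 HOX genes of 28061 genes in the table, 11 in cluster A, 8 in cluster B, 9 in cluster C and 8 in cluster D. Ribosomal-RNA-depleted total RNA of Sus scrofa skeletal muscle was sequenced at 27 stages with 3 libraries a stage, 81 libraries in all. The animals carry the strain label Landrance and no genetic change or treatment is named in the labels. The 12 postnatal stages (36 libraries) run through D0, D9, D20, D30, D40, D60, D80, D100, D120, D140, D160 and D180, read here as days after birth. The 15 prenatal stages (45 libraries) run from E33 through E40 to E105 in steps of 5 days, read here as days of gestation. The labels name no muscle, sex or litter. They also do not tell whether replicates of a stage are different animals, so p-values reflect only library-to-library spread, part of which may be technical.

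HOX genes encode homeodomain transcription factors that stand in 4 clusters, and members at the same place in different clusters form a paralog group. Genes with low group numbers are switched on early and act toward the head end of the trunk, and those with high numbers are switched on later and act in the lower trunk, the tail and the outer parts of the limbs. Their proteins bind DNA together with TALE homeodomain cofactors of the PBX and MEIS families. In muscle they are known from work in the chick and the mouse to mark the position from which muscle cells and the connective tissue around them came, and this record can be kept in adult cells.

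Levels are given in FPKM, fragments scaled to transcript length and to library size, as the authors deposited them. A gene was counted as present at a stage when all 3 of its libraries held at least 1 FPKM. Summed FPKM of all genes lay between 320339 and 452249 per library, and the number of reads behind a value is unknown. Gene by gene, the lowest correlation of a library with another library of its stage ran from 0.954 to 0.993. Markers of mature muscle fibres were high in every library, with a summed level of 11783 to 61685 FPKM in postnatal libraries and 1961 to 26218 FPKM in prenatal libraries. The 3 E33 libraries had the lowest fibre sums, 1961 to 2390 FPKM. A pair of postnatal libraries, D100 replicate 1 and D160 replicate 2, chosen after their values were seen, had 10 and 7 HOX genes outside the range of the other postnatal libraries. Their values follow the postnatal comparison. D0 replicate 1 had 7 HOX genes above all other postnatal libraries, HOXA5, HOXA6 and HOXA9 among them. In RNA from whole tissue, fewer cells that carry a transcript and less of it in each cell cannot be told apart.

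Of the 36 HOX genes, 20 were present at one or more stages, 19 of them before birth and 12 after birth. The other 16 never had all 3 libraries of a stage at 1 FPKM. By position, in paralog groups 1 to 3, 5 of 8 genes were present, HOXA3, HOXB2, HOXB3, HOXD1 and HOXD3. In groups 4 to 8, 11 of 13 were present, all except HOXB5 and HOXB8. In groups 9 and 10, 4 of 6 were present, HOXA9, HOXC9, HOXC10 and HOXD9. In groups 11 to 13, 0 of 9 were present at any stage. HOXB4, HOXB9 and HOXD4 were not analysed here and are in none of these counts. By cluster, 6 of 11 genes of cluster A were present, 4 of 8 of cluster B, 6 of 9 of cluster C and 4 of 8 of cluster D.

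The absent genes fell into 2 kinds. In some, 1 or more libraries passed 1 FPKM but never all 3 of a stage. Examples were HOXA2, which reached 2.83 FPKM in E33 replicate 1, HOXB5 1.98 FPKM in E33 replicate 2, HOXA11 1.09 FPKM in E33 replicate 3 and HOXA10 4.62 FPKM in E50 replicate 2. HOXA10 was at 1 FPKM or more in 17 libraries, 13 prenatal and 4 postnatal, so it is absent only by the rule of 3 libraries a stage. The others, 11 genes, stayed under 1 FPKM in all 81 libraries. Of these the highest single values were 0.961 FPKM for HOXD10 in E33 replicate 3, 0.703 FPKM for HOXC11 in D100 replicate 1 and 0.66 FPKM for HOXB8. HOXD11 reached 0.355 FPKM, HOXC13 0.319 FPKM, HOXC12 and HOXD12 0.107 FPKM each and HOXB1 0.0886 FPKM. HOXD13 reached 0.0674 FPKM, HOXA13 0.0573 FPKM and HOXB13 0.0324 FPKM. Group 13 genes, which in the mouse pattern the hand, the foot and the tail end, thus reached at most 0.319 FPKM in any library.

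The present genes differed widely in level. HOXD8 had the highest median over all libraries, 16.7 FPKM, which placed it at rank 2461 of the 28061 genes. HOXC9 followed with 5.55 FPKM, HOXA5 with 4.65 FPKM, HOXA6 with 4.57 FPKM and HOXA7 with 3.33 FPKM. The medians of HOXA9, HOXD9, HOXC8, HOXB2, HOXA4, HOXB7 and HOXB6 lay between 2.30 and 1.13 FPKM. The summed level of all 36 genes was 18.3, 48.2 and 59.8 FPKM (lowest, median, highest) in the 36 postnatal libraries and 38.2, 62.0 and 187 FPKM in the 45 prenatal libraries. The lowest postnatal sum was that of D160 replicate 2, and the next lowest, in D80 replicate 2, was 32.7 FPKM. HOXD8 alone made up 17.0% to 55.8% of that sum after birth, with a median of 42.4%, and 4.95% to 35.4% before birth, with a median of 25.6%.

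At all 12 postnatal stages 2 genes were present, HOXD8 and HOXC9, the second of which in the mouse sets the thoracic identity of motor neurons. Each was also present at all 15 prenatal stages. HOXA5, HOXA6 and HOXA7 were present at 11 of 12 postnatal stages and missed D120, and HOXD9 was present at 11 and missed D160. HOXC8 was present at 8 postnatal stages, HOXA4 at 5, HOXA9 and HOXB7 at 3 each, HOXC10 at 2 and HOXB2 at 1, D0. The other 8 present genes, HOXA3, HOXB3, HOXB6, HOXC4, HOXC5, HOXC6, HOXD1 and HOXD3, were present by this rule before birth only. Of these, HOXD1 still reached 1 FPKM in 7 postnatal libraries, HOXB6 in 5 and HOXC5 in 2. The D180 mean of HOXD1 was 2.09 FPKM, raised by D180 replicate 3 with 4.27 FPKM, and not all D180 libraries reached 1 FPKM. Its highest prenatal stage mean after E33 was 1.77 FPKM, at E75. By position, 1 of 8 genes of groups 1 to 3 was present at a postnatal stage, 7 of 13 of groups 4 to 8 and 4 of 6 of groups 9 and 10.

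These counts turn on the values near 1 FPKM. Just outside at D120 were HOXA5 with 0.724, 0.92 and 1.77 FPKM, HOXA6 with 0.793, 0.814 and 1.44 FPKM and HOXA7 with 1.65, 0.299 and 1.04 FPKM. HOXD9 had 1.64, 0.306 and 1.92 FPKM at D160, where the library below the line was D160 replicate 2. Just inside, the lowest postnatal values of HOXC9 and HOXD8 were 1.89 and 3.14 FPKM, both also in D160 replicate 2. With a line at 0.5 FPKM 5 genes were present at all postnatal stages, with one at 2 FPKM 1 gene, HOXD8, and with the stage mean in place of every library 5 genes.

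The number of present genes was highest at the earliest stage. At E33 18 of the 36 genes were present, against 7 to 14 at the later prenatal stages and 5 to 10 after birth, with the lowest count, 5, at D120. Of the 20 present genes, 16 had their highest stage mean at E33. The exceptions were HOXA4 at D9, HOXB2 at E70, HOXC10 at D30 and HOXD8 at D100. HOXA3, HOXB3, HOXC4 and HOXC5 were present at E33 and at no other stage.

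The size of the E33 level above all later fetal stages differed between genes. HOXC5 had 9.8, 2.99 and 2.43 FPKM at E33, and its highest later prenatal stage mean was 0.984 FPKM. HOXB6 had 9.92, 12.2 and 4.7 FPKM at E33, and its highest later prenatal mean was 2.17 FPKM. HOXD3 had 3.72, 6.81 and 3.34 FPKM at E33 and a highest later prenatal mean of 1.54 FPKM. HOXC9 had 8.41, 26.3 and 15.3 FPKM at E33, against a highest later prenatal mean of 7.61 FPKM at E40. HOXD8 went the other way, with 9.83, 9.26 and 9.89 FPKM at E33, its lowest prenatal stage mean, and 25.4, 17.4 and 21.4 FPKM at E50, its highest.

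Levels across time were tested with limma on log2(FPKM + 1), a scale that understates the change of low genes, with p-values adjusted over 14220 genes that had at least 1 FPKM in at least 3 libraries. Among the HOX genes 21 passed that filter, the 20 present genes and HOXA10, and 15 did not. Over the 27 stages 20 of these 21 varied at an adjusted p under 0.05, where 99.3% of all genes tested did. The exception was HOXA10, with adjusted p = 0.417. Over the prenatal stages alone 16 varied, where 84.0% of all genes did, and over the postnatal stages alone 13 varied, where 85.1% did. With no filter on low values 24, 21 and 13 of the 36 HOX genes varied over all, prenatal and postnatal stages, where 74.9%, 60.7% and 53.5% of all genes did. HOXA9 (adjusted p = 0.152), HOXB2 (0.451), HOXC10 (0.482) and HOXD8 (0.12) were among those that did not pass over the prenatal stages in the limma test.

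**Figure D1:**
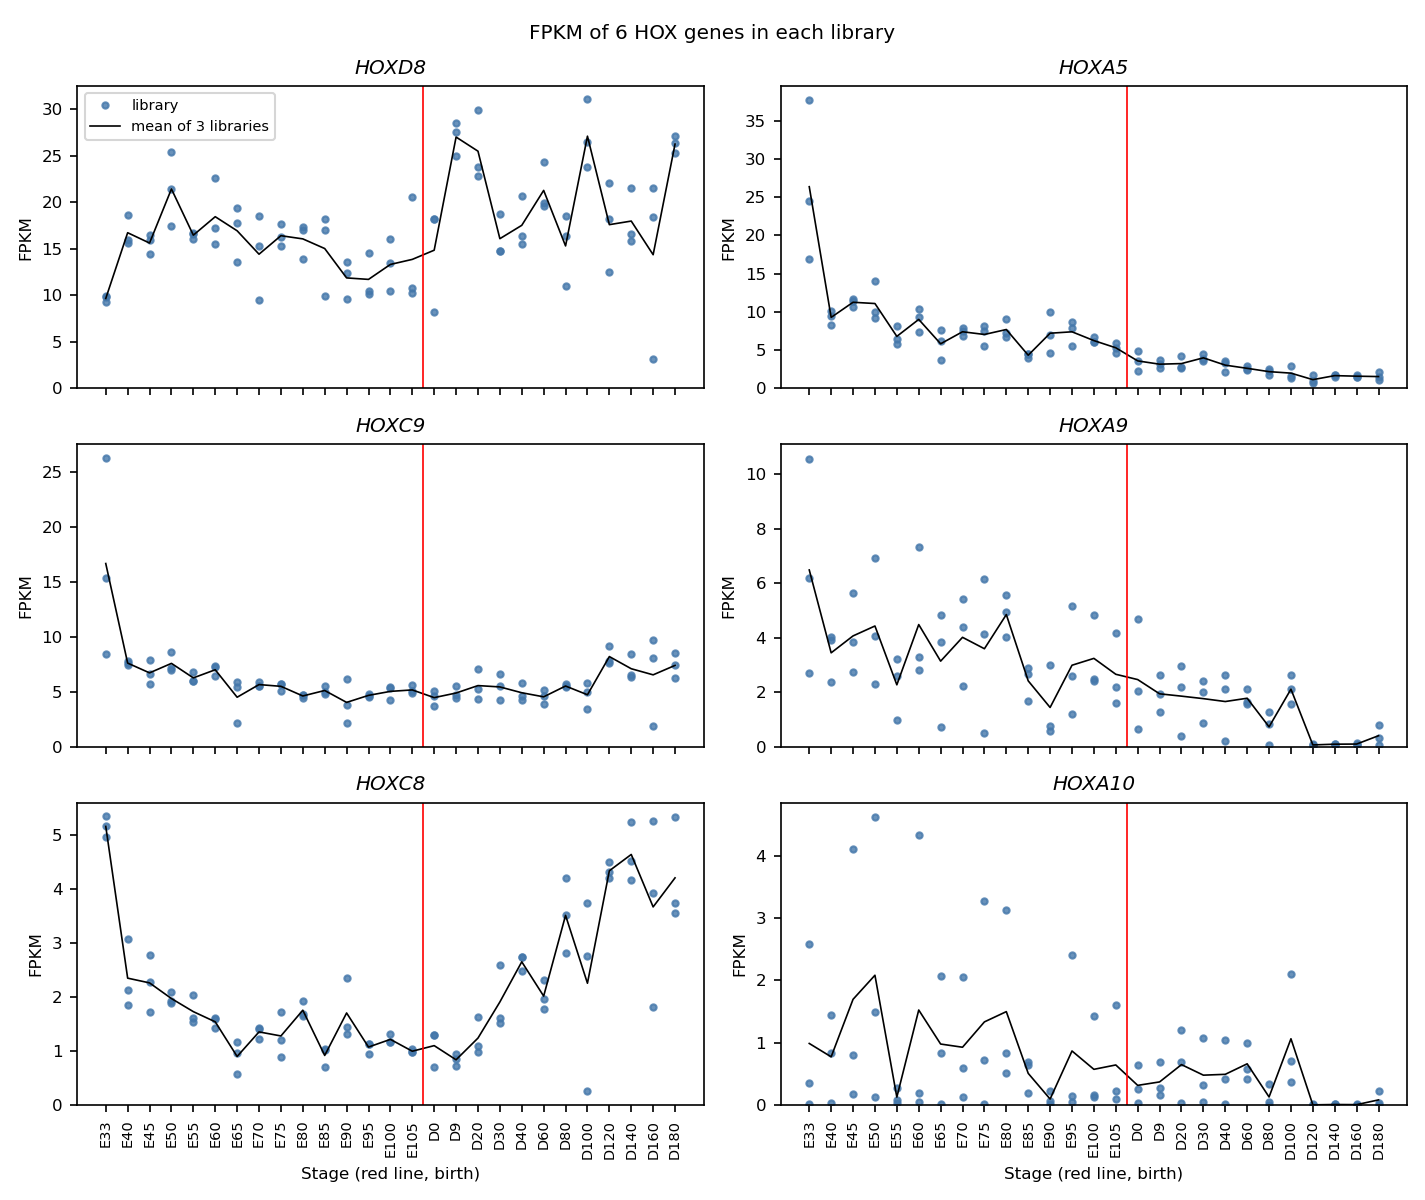
FPKM of HOXD8, HOXC9, HOXC8, HOXA5, HOXA9 and HOXA10 in each library, with stages from E33 to D180 on the horizontal axes and FPKM from 0 on the vertical axes. Points are single libraries, the black line is the mean of the 3 libraries of a stage and the red line is birth. HOXA5 lies lower after birth, HOXC8 is highest at E33 and again from D120 on, and HOXA10 spreads over most of its range within a single stage.

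After birth against before birth, a gene was called when its limma adjusted p was under 0.05 and its mean differed by at least 1 on the log2 scale. Here and in later comparisons of pooled stages, SE and p-values rest on the spread of libraries within stages, not among stages. Of the HOX genes 3 were called lower, HOXA5, HOXA6 and HOXA9, and 0 higher. The same rule called 26.6% of all genes tested and called 22.6% of all genes lower. The median of all genes was -0.55 in this comparison and the median of the 21 tested HOX genes was -0.39. With no filter on low values the same count, 3 of 36, was called, where 13.6% of all genes were. By adjusted p alone 20 of the 21 passed, 17 lower and 3 higher, where 93.8% of all genes passed. With a pseudocount of 0.1, which weighs low genes more, 9 HOX genes were called lower, where 46.7% of all genes were called.

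HOXA5, which in the mouse patterns the neck and upper chest skeleton and the lung, had 0.724, 2.37 and 4.95 FPKM (lowest, median, highest) in the 36 postnatal libraries and 3.67, 7.49 and 37.7 FPKM in the 45 prenatal libraries. The groups overlapped only between 3.67 and 4.95 FPKM. It fell by 1.42 on the log2 scale (SE 0.0603, limma adjusted p = 4.15e-31). Its neighbour HOXA6 had 0.793, 2.38 and 5.05 FPKM after birth and 3.42, 6.94 and 34.6 FPKM before birth, again with a small overlap. It fell by 1.31 (SE 0.0644, limma adjusted p = 7.14e-28). In the RefSeq annotation of Sscrofa11.1 HOXA5 and HOXA6 overlap, and the span of HOXA3 covers HOXA4, HOXA5 and HOXA6. How the authors' counting shared fragments between overlapping genes is not stated, so the split between them is uncertain.

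HOXA9, known in the mouse from blood stem cells and from adult muscle stem cells, had 0.0387, 1.08 and 4.68 FPKM after birth and 0.502, 3.23 and 10.6 FPKM before birth. The groups overlapped from 0.502 to 4.68 FPKM. The highest postnatal value was in D0 replicate 1, and the next highest was 2.95 FPKM. It fell by 1.06 (SE 0.126, limma adjusted p = 1.39e-11). The 3 genes kept this direction when libraries were scaled to a common median ratio, with log2 differences of -0.78 for HOXA5, -0.67 for HOXA6 and -0.61 for HOXA9, but none of the 3 then reached a difference of 1. That scaling moved the median of all genes to -0.01 and called 17.0% of all genes.

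Genes short of the fold rule included HOXB3, a low gene whose groups did not overlap. It had 0.0859, 0.241 and 0.379 FPKM after birth and 0.495, 0.737 and 2.68 FPKM before birth, a log2 difference of -0.53 (SE 0.024, limma adjusted p = 1.91e-29). HOXB6 had 0.224, 0.648 and 1.2 FPKM after birth and 0.814, 1.53 and 12.2 FPKM before birth, a log2 difference of -0.75 (SE 0.0594, limma adjusted p = 4.12e-18). HOXD3 had 0.127, 0.29 and 0.858 FPKM after birth and 0.367, 0.946 and 6.81 FPKM before birth. Its log2 difference was -0.62 (SE 0.0389, limma adjusted p = 9.03e-23), and HOXB2 and HOXA7 stood at -0.62 and -0.60. HOXB2 had 0.325, 0.717 and 2.26 FPKM after birth and 0.664, 1.81 and 3.22 FPKM before birth. HOXA7 had 0.299, 2.3 and 5.62 FPKM after birth and 2, 3.98 and 10 FPKM before birth. The groups of both genes overlapped.

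The 3 genes with positive differences by adjusted p alone were HOXC8, HOXC10 and HOXD8. HOXD8 had 3.14, 19.8 and 31.1 FPKM after birth and 9.26, 15.9 and 25.4 FPKM before birth, a log2 difference of 0.34 (SE 0.0825, limma adjusted p = 0.00015). HOXC8 had 0.266, 2.66 and 5.33 FPKM after birth and 0.58, 1.45 and 5.35 FPKM before birth, a log2 difference of 0.38 (SE 0.0614, limma adjusted p = 7.93e-08). Both pairs of groups overlapped. HOXC9 stood at 1.89, 5.5 and 9.69 FPKM after birth and 2.15, 5.68 and 26.3 FPKM before birth, with a log2 difference of -0.08 (SE 0.0723, limma adjusted p = 0.287). Under median-ratio scaling HOXD8 was called higher with a log2 difference of 1.12 (limma adjusted p = 1.86e-17), HOXC8 stood at 0.94, and HOXC9 turned to 0.63. HOXA4, HOXB7 and HOXD9 also turned, with -0.11, -0.21 and -0.19 as deposited and 0.35, 0.25 and 0.36 after that scaling. HOXB7 had 0.642, 1.04 and 2.45 FPKM after birth and 0.613, 1.37 and 3.74 FPKM before birth. HOXD9 had 0.306, 1.92 and 4.97 FPKM after birth and 0.595, 2.13 and 8.08 FPKM before birth, and it overlaps HOXD10 and HOXD11 in the annotation. HOXC8 and HOXC9 are both overlapped by an unnamed entry.

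**Figure D2:**
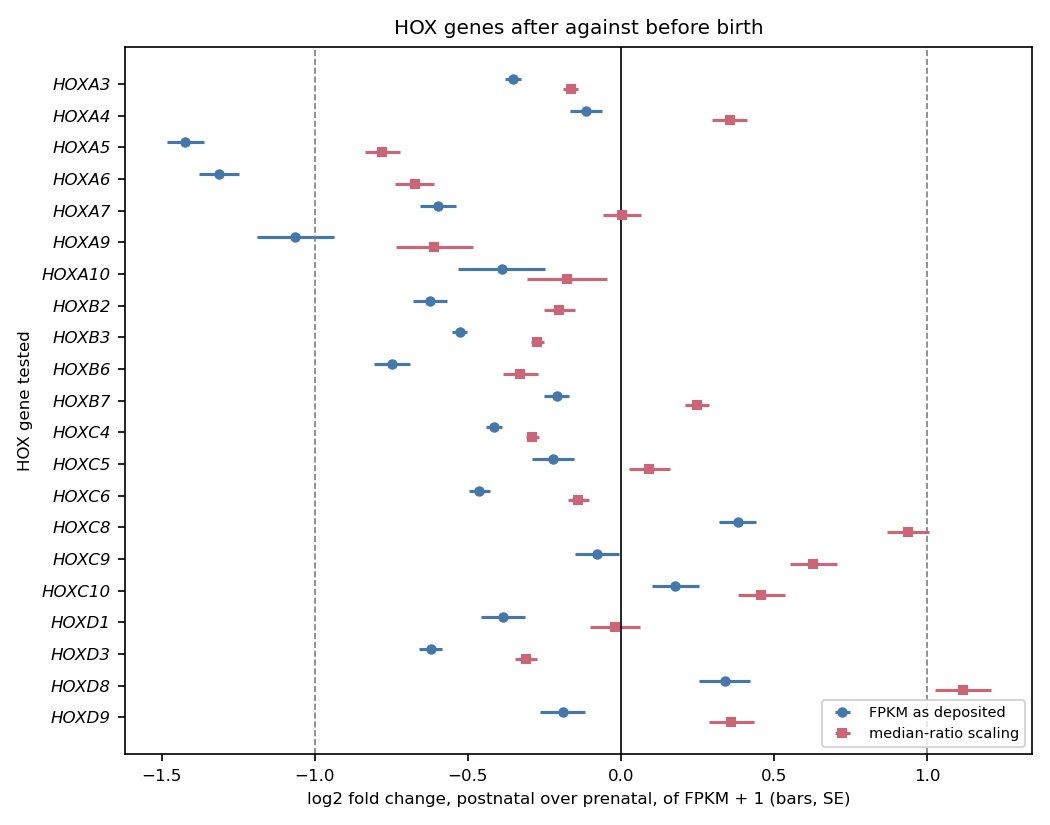
Log2 difference of FPKM + 1 after birth over before birth for the 21 tested HOX genes, with bars for the SE. Blue points use FPKM as deposited and red squares use median-ratio scaling, with dashed lines at a difference of 1 either way. As deposited, HOXA5, HOXA6 and HOXA9 lie beyond -1, and after the scaling HOXD8 alone lies beyond a difference of 1.

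Markers of the cells that could carry these transcripts were also called across birth. As deposited, the rule called 22.6% of all genes tested lower and 572 of 14220 higher. Of 11 fibroblast markers 6 were lower and 0 higher after birth, with a summed level of 858 to 3866 FPKM in postnatal libraries and 2134 to 7668 FPKM in prenatal libraries. Of 6 tested markers of satellite cells and myoblasts 5 were lower, with a sum of 50.8 to 131 FPKM after birth and 236 to 565 FPKM before birth. Tendon markers were lower in 6 of 7 and cartilage and bone markers in 4 of 7. Fibre markers were higher in 8 of 9 and adipocyte markers in 5 of 5. Nerve markers were lower in 2 of 7, endothelial markers in 1 of 6, leukocyte markers higher in 1 of 4, and the 1 tested epidermal marker was not called. The nerve and endothelial counts lay near the share of all genes called lower. Median-ratio scaling called 902 of 14220 genes lower and 1518 higher. Under median-ratio scaling 0 of 11 fibroblast markers were called, and 4 of 6 satellite cell and myoblast markers, 6 of 7 tendon markers and 2 of 7 cartilage and bone markers were lower. That scaling called 9 of 9 fibre markers, 5 of 5 adipocyte markers, 1 of 6 endothelial markers and 1 of 4 leukocyte markers higher, and of 7 nerve markers 2 lower and 1 higher. The part of these shifts in the HOX differences was not tested.

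Within gestation, late fetal muscle (E95, E100 and E105) was compared with early fetal muscle (E33, E40 and E45). HOXA5, HOXA6 and HOXC6 were called lower and 0 HOX genes higher, 3 of 21 tested, where 15.4% of all genes tested were called and 9.32% were called lower. The median was -0.56 for the tested HOX genes and -0.19 for all genes. With no filter on low values 3 of 36 HOX genes were called, where 7.86% of all genes were. By adjusted p alone 15 of the 21 passed, where 75.4% of all genes passed. With a pseudocount of 0.1 10 HOX genes were called, where 26.2% of all genes were called.

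HOXC6, a gene of the chest region in the mouse, had 0.127, 0.459 and 0.764 FPKM in the 9 late libraries and 1.04, 1.72 and 3.62 FPKM in the 9 early libraries. The groups did not overlap, and it fell by 1.02 (SE 0.0726, limma adjusted p = 2.35e-19). HOXA6 had 4.43, 4.83 and 7.44 FPKM late and 7.01, 12.2 and 34.6 FPKM early and fell by 1.13 (SE 0.136, limma adjusted p = 6.1e-11). HOXA5 had 4.65, 6.02 and 8.74 FPKM late and 8.26, 11.4 and 37.7 FPKM early and fell by 1.04 (SE 0.127, limma adjusted p = 1.05e-10). Both overlapped at the edge.

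Without E33 0 of the 3 was called, with log2 differences of -0.63 for HOXA5, -0.82 for HOXA6 and -0.77 for HOXC6, while 13.4% of all genes still were. The same 0 resulted under median-ratio scaling, where 12.7% of all genes were called. Leaving out E33 replicate 2 or E95 replicate 1 took HOXA5 below a difference of 1, and leaving out any of E33 replicate 3, E40 replicate 2, E95 replicate 1 or E105 replicate 2 did so for HOXC6. Without E33 replicate 3 HOXB6 and HOXC5 were also called lower. Cell type markers were also called as deposited, where 9.32% of all genes tested were called lower and 863 of 14220 higher. Late against early, tendon markers were lower in 4 of 7 and cartilage and bone markers in 3 of 7. Fibre markers were higher in 8 of 9, endothelial markers in 5 of 6 and adipocyte markers in 4 of 5. Of 11 fibroblast markers 3 were lower and 1 higher, of 6 satellite cell and myoblast markers 2 were lower and 1 higher, and of 7 nerve markers 2 were lower and 1 higher. Their part was not tested.

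Other genes of cluster C and HOXD3 were lower late than early by adjusted p without reaching the fold rule. HOXC8 had 0.945, 1.14 and 1.31 FPKM late and 1.73, 2.77 and 5.35 FPKM early, a log2 difference of -0.95 (SE 0.129, limma adjusted p = 2.47e-09). HOXC4, HOXC5 and HOXC9 stood at -0.76, -0.90 and -0.78, and HOXD3 at -0.91. In none of these 5 genes did the late and early libraries overlap. Here and for other genes said not to overlap, the share of all genes tested without overlap is not given. A lack of overlap is therefore not read as particular to these genes. HOXB6 had 0.971, 1.21 and 1.71 FPKM late and 1.48, 2.17 and 12.2 FPKM early, with a log2 difference of -0.92 (SE 0.125, limma adjusted p = 2.56e-09). HOXA4 was the exception in cluster A, with 1.21, 1.86 and 2.85 FPKM late and 0.628, 0.984 and 1.25 FPKM early. Its log2 difference was 0.63 (SE 0.111, limma adjusted p = 1.01e-06).

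At birth itself, D0 against E105, limma called 0 of 21 HOX genes, where 12.2% of all genes tested were called. At an unadjusted p under 0.05 there were 5, HOXC6 higher and HOXA5, HOXB3, HOXB6 and HOXB7 lower, where 58.0% of all genes passed that line, and 4 of them had an adjusted p under 0.05, where 53.3% of all genes did. HOXB7 had 0.648, 0.871 and 0.646 FPKM at D0 and 1.77, 1.82 and 1.55 FPKM at E105, a log2 difference of -0.66 (SE 0.152, limma adjusted p = 0.000228). HOXB6 had 0.531, 0.73 and 0.232 FPKM at D0 and 1.02, 1.44 and 1.18 FPKM at E105, a log2 difference of -0.57 (SE 0.217, limma adjusted p = 0.022). The D0 libraries of both genes lay below all E105 libraries.

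HOXC6 had 0.647, 0.724 and 0.426 FPKM at D0 and 0.372, 0.127 and 0.41 FPKM at E105, a log2 difference of 0.30 (SE 0.126, limma adjusted p = 0.0411). HOXA5 had 4.95, 3.54 and 2.28 FPKM at D0 and 4.65, 5.94 and 5.33 FPKM at E105, a log2 difference of -0.49 (limma adjusted p = 0.0527). HOXD9 had 4.97, 3.22 and 2.58 FPKM at D0 and 2.71, 2.41 and 2.66 FPKM at E105, a log2 difference of 0.32 (limma adjusted p = 0.324). The libraries of HOXC6 did not overlap, while those of HOXA5 and HOXD9 did. With a pseudocount of 0.1, which weighs low values more, HOXB6 and HOXB7 were called lower with log2 differences of -1.22 and -1.15, where 24.8% of all genes were called. With the pseudocount of 1, 12.2% of all genes tested were called. At D0 5 of 6 endothelial markers and 3 of 6 markers of satellite cells and myoblasts were then lower than at E105. Nerve markers were lower in 3 of 7, leukocyte markers in 2 of 4 and tendon markers in 1 of 7, and of 11 fibroblast markers 3 were lower and 1 higher. Their part was not tested.

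During postnatal growth, late muscle (D140, D160 and D180) was compared with early muscle (D20, D30 and D40). HOXA9 was the 1 HOX gene called of 21 tested and it was lower, where 2.28% of all genes tested were called and 1.49% were called lower. It had 0.0674, 0.0866 and 0.799 FPKM in the 9 late libraries and 0.227, 2.11 and 2.95 FPKM in the 9 early libraries, with D180 replicates 1 and 2 reaching into the early range. It fell by 1.12 (SE 0.266, limma adjusted p = 0.00044), and by 1.02 to 1.28 when any single library was left out. By adjusted p alone 9 HOX genes passed, where 45.2% of all genes passed, and with a pseudocount of 0.1 7 were called, where 6.32% of all genes were called. Median-ratio scaling called HOXA9 lower and HOXD1 higher, where it called 2.64% of all genes.

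HOXA9 was low in all 9 libraries of D120, D140 and D160, between 0.0387 and 0.147 FPKM. The 3 libraries of D100 held 2.62, 1.58 and 2.13 FPKM, and those of D80 held 0.829, 0.0751 and 1.28 FPKM, so that D80 replicate 2 was as low as the later ones. HOXA10 was at or near 0 in the same 9 libraries, with a highest value of 0.021 FPKM, against 2.11, 0.373 and 0.711 FPKM at D100, and it was also listed at 0 in D80 replicate 2. HOXC10 had 0, 0.272 and 0.638 FPKM late and 0.244, 1.28 and 1.77 FPKM early, a log2 difference of -0.71 (SE 0.162, limma adjusted p = 0.000262). It was present only at D30 and D100, and at D30 it had 1.69, 1.77 and 1.05 FPKM.

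HOXC8, a gene of the lower chest region in the mouse, showed the opposite order. It had 1.81, 4.16 and 5.33 FPKM late and 0.987, 1.64 and 2.75 FPKM early, a log2 difference of 0.82 (SE 0.129, limma adjusted p = 4.48e-07), and 1 late library, D160 replicate 2, lay within the early range. Its values were 4.96, 5.18 and 5.35 FPKM at E33, 0.98, 1.04 and 0.975 FPKM at E105 and 0.861, 0.717 and 0.938 FPKM at D9, its lowest stage. From there the stages after birth read 2.48, 2.74 and 2.75 FPKM at D40, 4.31, 4.21 and 4.49 FPKM at D120 and 5.33, 3.74 and 3.55 FPKM at D180. The rise was not even, since HOXC8 was not present at D100. There D100 replicate 1 held 0.266 FPKM, its lowest value in any library. The highest late postnatal library, 5.33 FPKM, lay within the E33 range. HOXC8 varied over the postnatal stages with limma adjusted p = 6.4e-11.

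HOXD1, the first gene of its cluster, had 0.0241, 1.25 and 4.27 FPKM late and 0.15, 0.21 and 0.419 FPKM early, a log2 difference of 0.85 (SE 0.149, limma adjusted p = 3.66e-06). Of the 9 late libraries 8 lay above all early libraries, and D160 replicate 2 lay below them. Without that library HOXD1 passed the fold rule and was called higher. HOXA5 and HOXA6 stood at -0.75 and -0.80 (SE 0.127 and 0.136). HOXA5 had 1.05, 1.53 and 2.15 FPKM late and 2.11, 3.57 and 4.55 FPKM early, and HOXA6 had 1.06, 1.71 and 2.36 FPKM late and 2.21, 4.03 and 4.76 FPKM early. For both genes the late and early ranges overlapped only at the edge. Adipocyte markers were higher late in 2 of 5 and nerve markers lower in 2 of 7, where 2.28% of all genes tested were called. Tendon markers were lower in 1 of 7, satellite cell and myoblast markers in 1 of 6 and fibre markers in 1 of 9. Their part was not tested.

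Among the tested HOX genes, the libraries of a stage differed most for HOXA10 and HOXA9. HOXA10 had a within-stage SD of 0.66 on the log2 scale, above that of 99.2% of all genes tested, where the median gene had 0.18. In 17 of the 22 stages at which its lowest library was above 0, the highest library held over 10 times the lowest. Some of these ratios rest on low values with an unknown number of reads, such as 0.011, 0.222 and 0.0581 FPKM at E90. At E60 it had 0.0549, 0.195 and 4.32 FPKM, at E45 4.11, 0.182 and 0.798 FPKM and at E75 3.27, 0.718 and 0.0149 FPKM. The highest library was replicate 3 at E60 and replicate 1 at E45 and E75.

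HOXA9 had a within-stage SD of 0.59, followed by HOXD8 with 0.38 and HOXC10 with 0.36. At E75 HOXA9 had 6.14, 4.14 and 0.502 FPKM and HOXC10 had 0.873, 0.525 and 0.0764 FPKM, in the same order of libraries as HOXA10. Within-stage spread was small for HOXB3, with an SD of 0.10, although a pseudocount of 1 also compresses the spread of low genes.

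To see whether the spread was shared, each library's deviation from its stage mean was correlated between genes over the 81 libraries, for 210 pairs of the 21 tested genes, with p-values from permuting libraries within stages. HOXA10 and HOXC10 deviated together (r = 0.799, rho = 0.828, permutation p = 1e-05 for each, the smallest that 100000 permutations can give, adjusted p = 0.00042 and 0.0003). Their highest library was the same at 21 of 27 stages. HOXA9 deviated with HOXC10 (r = 0.772, rho = 0.805), with HOXA10 (r = 0.754, rho = 0.816) and with HOXD9 (r = 0.641, rho = 0.724), each with the same permutation p and adjusted p. The 2 libraries in which the first-named gene of a pair lay farthest from its median deviation were then left out. The other gene of the pair played no part in that choice. The r values of the 4 pairs became 0.797, 0.762, 0.735 and 0.616. These genes lie on 3 different clusters, and HOXA9 and HOXA10, on one cluster, are neighbours. Of the 210 pairs, 47 were positive and 3 negative with an adjusted permutation p under 0.05 for both r and rho. Shared deviation was thus not particular to the pairs named here. HOXB3 and HOXB6 (r = 0.698), HOXA3 and HOXA6 (0.685) and HOXC9 and HOXD9 (0.660) had a higher r than HOXA9 and HOXD9, but a lower rho.

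The closest pair of all was HOXA5 and HOXA6 (r = 0.924, rho = 0.909, permutation p = 1e-05, adjusted p = 0.00042 and 0.0003). Without the 2 libraries farthest for HOXA5, r was 0.912. The 2 genes overlap in the annotation, so they may share fragments. A pair that deviated in opposite directions was HOXB7 and HOXC9 (r = -0.520, rho = -0.432, adjusted permutation p = 0.0039 and 0.012). Without the 2 libraries farthest for HOXB7, r was -0.467. The median r was 0.415 over 14 pairs of the same paralog group on different clusters, 0.314 over 12 neighbours on one cluster, 0.301 over 36 pairs further apart on one cluster and 0.0947 over the other 148 pairs. The pairs share libraries and scaling, and these medians are a description.

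**Figure D3:**
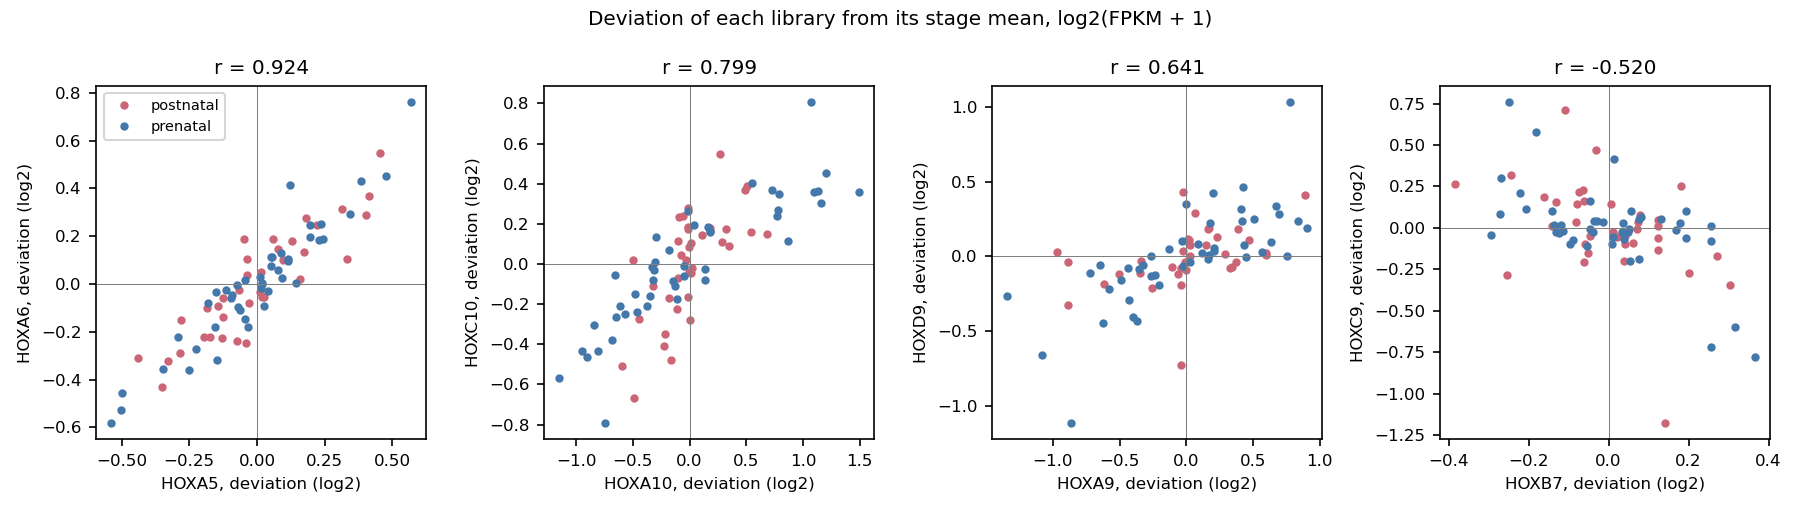
Deviation of each library from the mean of its stage in log2(FPKM + 1) for 4 pairs of HOX genes, HOXA5 and HOXA6, HOXA10 and HOXC10, HOXA9 and HOXD9, HOXB7 and HOXC9, with postnatal libraries in red and prenatal libraries in blue. Each panel holds 81 points and gives Pearson's r, positive in the first 3 panels and -0.520 in the last.

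Over stage means the genes most like one another were again HOXA5 and HOXA6, with r = 0.991 over 27 stage means and 0.989 without E33. Over the 27 stage means HOXB6 and HOXD3 followed with r = 0.968, which was 0.934 without E33, where HOXA3 and HOXA5 followed instead with 0.956. The most opposed over the 27 stage means were HOXB2 and HOXC8 with r = -0.662, which was -0.751 without E33, where HOXA7 and HOXC8 were the most opposed with -0.754. Stage means share libraries and scaling, and these values are given as a description.

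Of the 2 postnatal libraries set out at the start, D100 replicate 1 held HOXA10, HOXA11, HOXC11, HOXD10 and HOXD11 above every other postnatal library. HOXA10 stood at 2.11 FPKM, where the other 34 postnatal libraries (D160 replicate 2 also set aside) reached 1.21 FPKM. HOXC11 stood at 0.703 FPKM against at most 0.079 FPKM, HOXD10 at 0.332 FPKM against at most 0.152 FPKM and HOXD11 at 0.148 FPKM against at most 0.0341 FPKM. HOXD8 had its highest value of all libraries there, 31.1 FPKM.

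Genes of the middle of cluster C were below the other 34 libraries in D100 replicate 1. HOXC8 stood at 0.266 FPKM against at least 0.711 FPKM, HOXC6 at 0.096 FPKM against at least 0.228 FPKM, HOXC5 at 0.0604 FPKM against at least 0.0998 FPKM and HOXC9 at 3.45 FPKM against at least 3.71 FPKM. Outside the HOX clusters, PITX1, which in the mouse sets hindlimb identity, stood at 5.93 FPKM in this library and at 0.046 and 0.039 FPKM in the other D100 libraries. ZIC1, which in the mouse acts in the dorsal part of the somites, stood at 0.02 FPKM in this library and at 1.39 and 1.49 FPKM in the other D100 libraries. Its fibre marker sum was 51113 FPKM, against 40444 and 50854 FPKM in the other D100 libraries, and its fibroblast marker sum was 2895 FPKM against 3142 and 2690 FPKM. The labels name no muscle, and the part of body region in these values was not tested.

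D160 replicate 2 differed in another set. HOXD8 stood at 3.14 FPKM where the other 34 postnatal libraries held at least 8.17 FPKM, HOXD9 at 0.306 FPKM against at least 1.06 FPKM and HOXC9 at 1.89 FPKM against at least 3.71 FPKM. HOXC10 was listed at 0 and HOXD1 at 0.0241 FPKM, below all others. HOXC4 and HOXB8, low genes after birth, were above the other 34, at 0.137 and 0.132 FPKM. IRX3, a homeobox gene outside the clusters, stood at 6.26 FPKM, against 0.721 and 0.449 FPKM in the other D160 libraries. The other postnatal libraries ranged from 0.449 to 4.22 FPKM for IRX3. The fibre marker sum was 31892 FPKM in this library and 49424 and 60878 FPKM in the others of D160. The endothelial sum was 123 FPKM against 56.0 and 62.3 FPKM and the adipocyte sum 207 FPKM against 117 and 155 FPKM. The part of these shifts was not tested. With both libraries left out, the postnatal against prenatal count stayed at 3, where 26.9% of all genes were called. The late against early postnatal count became 2, HOXA9 lower and HOXD1 higher, where 2.56% of all genes were called.

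**Figure D4:**
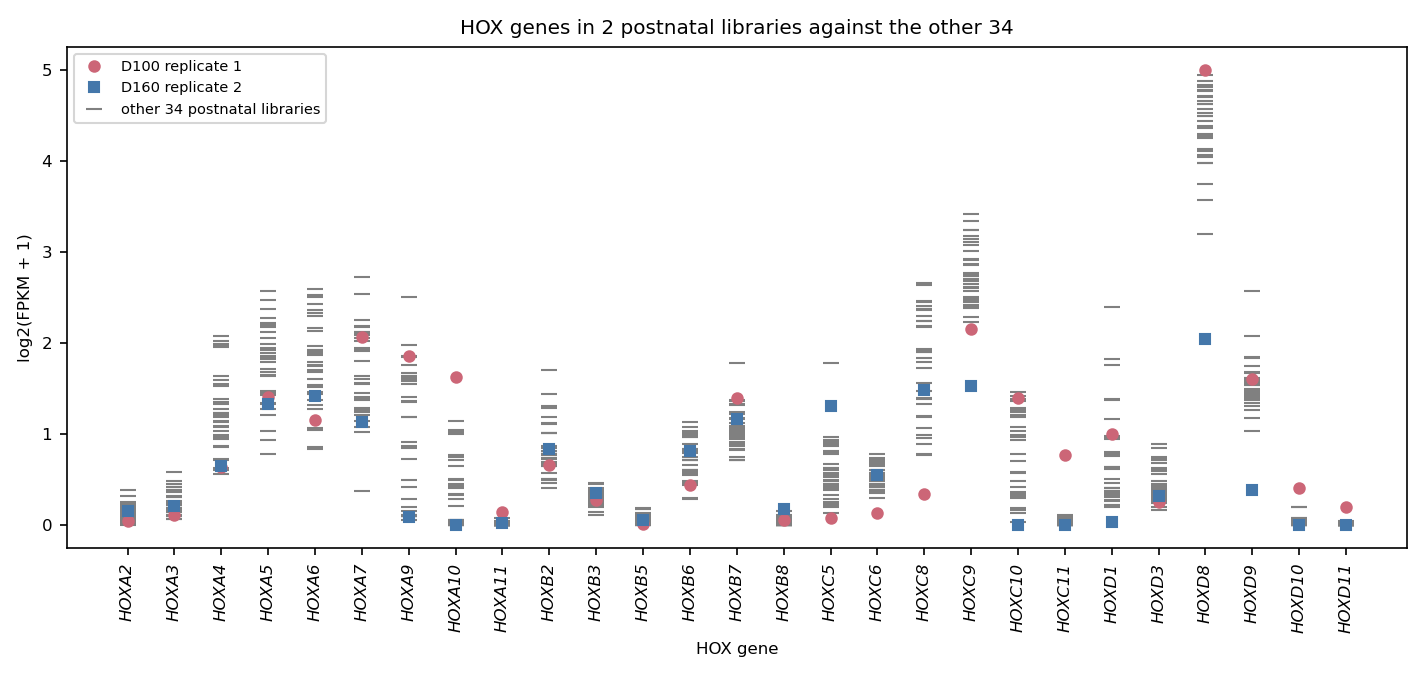
Log2(FPKM + 1) of HOX genes in D100 replicate 1 (red circles), D160 replicate 2 (blue squares) and the other 34 postnatal libraries (grey dashes), for genes that reach at least 0.1 FPKM in D100 replicate 1 or in one of the other 34. D100 replicate 1 lies above the dashes for HOXA10, HOXC11 and HOXD8 and below them for HOXC8, and D160 replicate 2 lies below them for HOXC9, HOXD8 and HOXD9.

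The genes that act with or on the HOX genes were read from lists. Of 9 TALE cofactors, which bind DNA beside HOX proteins, 4 were lower after birth than before and 0 higher, PBX2 (log2 difference -1.49), MEIS1 (-1.36), MEIS2 (-1.36) and MEIS3 (-1.16), where 22.6% of all genes tested were lower. The list median was -0.998 and that of all genes -0.55. MEIS1 had 0.843, 1.95 and 3.17 FPKM after birth and 3.41, 5.87 and 26.1 FPKM before birth, so that no library overlapped. Under median-ratio scaling 0 of the 9 was called across birth, where 17.0% of all genes were. Within gestation 4 were lower late than early, PBX3 (-1.30), MEIS1 (-1.45), MEIS2 (-1.64) and MEIS3 (-1.56), where 9.32% of all genes tested were lower. Both scalings also called these 4. PBX3 was higher late than early after birth, by 1.09 (SE 0.134), as deposited and in both scalings (median-ratio and quantile).

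Of the genes upstream of HOX expression, 5 of 10 in the table were tested, and 2 were lower after birth, where 22.6% of all genes tested were. RARB, a retinoic acid receptor, had 0.967, 1.93 and 3.54 FPKM after birth and 3.71, 6.64 and 10.4 FPKM before birth (log2 difference -1.38). ALDH1A2, an enzyme that makes retinoic acid, had 0.179, 0.952 and 2.73 FPKM after birth and 2.16, 6.15 and 12.2 FPKM before birth (log2 difference -1.81). ALDH1A2 was also lower at D0 than at E105 (-1.51), and it alone of the 2 was called across birth under median-ratio scaling.

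Of 21 chromatin regulators of the clusters, 7 were lower after birth and 0 higher, with a list median of -0.78, where 22.6% of all genes tested were lower. Among them were the Polycomb group genes EZH2 (-1.71), RING1 (-1.14), RNF2 (-1.98), CBX2 (-1.59), CBX8 (-1.71) and PHC2 (-1.05), whose products hold genes silent. CBX2 had 0.103, 0.388 and 0.866 FPKM after birth and 0.983, 2.86 and 11.1 FPKM before birth. Under median-ratio scaling EZH2, RNF2, CBX2 and CBX8 were still lower and CBX7 was called higher. Within gestation RNF2 (-1.18) and CBX2 (-1.76) were lower late than early, 2 of 21, where 9.32% of all genes tested were lower. Of the 2, median-ratio scaling kept CBX2. The trithorax group genes on the list, KMT2A, KMT2B, KMT2D, MEN1 and ASH2L among them, were not called across birth.

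Of 30 other homeobox and T-box genes of position, 18 were tested and 5 were lower after birth, TBX18 (-1.45), MEOX1 (-1.84), MEOX2 (-2.17), ZIC1 (-1.18) and TBX2 (-1.22), with a list median of -0.72. The 5 of 18 stand beside 22.6% of all genes tested that were lower. MEOX2, a somite gene that in the mouse is needed for limb muscle, had 12.6, 19.4 and 40.3 FPKM after birth and 50.5, 89.7 and 150 FPKM before birth. MEOX1 and MEOX2 were the 2 also called under median-ratio scaling. ZIC1 and both MEOX genes were lower late than early within gestation as deposited, 3 of 18, where 9.32% of all genes tested were lower. Median-ratio scaling called ZIC1 alone of these, and quantile normalisation ZIC1 and MEOX2.

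The table also held 10 unnamed entries that lie inside the HOX clusters in the RefSeq annotation, of which 8 were tested. Across birth 0 of these 8 were called, where 26.6% of all genes tested were. LOC106506838, a noncoding entry beside HOXA2, had 0.355, 1.7 and 7.45 FPKM after birth and 1.27, 3.83 and 9.59 FPKM before birth. It was lower at D0 than at E105 (log2 difference -1.17, limma adjusted p = 0.0004) and lower late than early after birth (-1.15, limma adjusted p = 3.5e-08). LOC110260668, between HOXC10 and HOXC11, had its highest value, 2.95 FPKM, in D100 replicate 1. LOC110257592 was lower at D0 than at E105 (-1.03), so that 2 of the 8 were called there, where 12.2% of all genes tested were. Late against early after birth 1 of the 8 was called, where 2.28% of all genes tested were. Neither D0 call was made under median-ratio scaling or quantile normalisation, while both scalings called LOC106506838 lower late than early after birth.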

How the data were processed

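The authors deposited 1 table of FPKM values per gene and library. Reads were processed with Trimmomatic, HISAT2 2.0.4 and StringTie 1.3.1, per the submitters' processing notes, and the genome build is not given in the sources used here. Libraries were paired-end and strand-specific, per the labels' protocols, and the strand setting of the counting is not given. Of 28325 entries 264 repeats of a gene ID were dropped, which left 28061 genes, and 0 value columns lacked a sample. Blank symbols were filled by gene ID from RefSeq's Sscrofa11.1 table, which was also used for neighbours, and no coordinates were taken from it. HOXB4, HOXB9 and HOXD4 were not analysed here. FPKM holds no read number, so no counting interval is given.

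The log2 of FPKM + 1 was fitted in R 4.3.3 by limma 3.58.1, with 1 mean per stage, a variance trend, 54 residual degrees of freedom and Benjamini-Hochberg adjustment over 14220 genes at 1 FPKM or more in at least 3 libraries, and 13841 genes were left out by that filter. The fit was tested on simulated data. Other steps used Python 3.11.15, numpy 2.4.6, pandas 2.3.3, scipy 1.17.1 and matplotlib 3.10.9. The HOX genes and the lists (TALE cofactors, upstream genes, chromatin regulators, position genes, cluster entries and cell type markers) were chosen with earlier results of these data known. All HOX genes were counted, and full values were given for up to 3 genes a cluster with the highest medians, for genes present at all postnatal stages and for the 5 largest differences per comparison. List members were named where called, except for a few items not reported here. LOC110260668, PITX1, IRX3, the D100 library values of ZIC1 and the examples of single stages were chosen after their values were seen. Alternatives covered the pseudocount, the filter on low values, 2 scalings, the variance trend, a replicate block, the libraries in the fit, the fold rule and leaving out libraries. Replicate numbers did not pair the libraries, since deviations of same-numbered libraries of different stages had a mean correlation of 0.004.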

Additional observations from a re-analysis of the deposited data

How the results depend on the processing

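Counts of HOX genes called are given here in the order postnatal against prenatal, late against early fetal, D0 against E105, and late against early postnatal. They were 3, 3, 0 and 1 as reported. With a pseudocount of 0.1 they were 9, 10, 2 and 7, and by adjusted p alone 20, 15, 4 and 9. Median-ratio scaling gave 1, 0, 0 and 2 and quantile normalisation 0, 0, 0 and 2. Why the scalings move these counts was not tested. Genes with a mean of at least 1 FPKM gave 12 of 12 over 27 stages and 9 over prenatal stages, because fewer genes were tested. Without E33 the fetal count was 0, and without D100 replicate 1 and D160 replicate 2 the late postnatal count was 2, both chosen after seeing the data. Genes present at all postnatal stages numbered 5 at 0.5 FPKM, 1 at 2 FPKM, 5 by stage means and 4 under median-ratio scaling, in place of 2. The other 63 results of this kind stayed within 1.5 times the reported count. Leaving out single libraries gave 3 to 3, 1 to 4, 0 to 0 and 1 to 2 for the 4 comparisons. It gave 20 to 20, 16 to 17 and 12 to 16 for the F tests over all, prenatal and postnatal stages. Present genes numbered 19 to 21 before birth, 12 to 13 after birth and 2 to 3 at all postnatal stages. A replicate block left the counts at 3, 3, 0 and 1 and changed no HOX call, and replicate numbers pair nothing here. No value reversed its sign past the threshold, and depth is unknown.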
